A study of Homo sapiens with 3 samples.

Results

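The miR-200 family of microRNAs (miRNAs) was measured by small RNA sequencing in MV4-11, an established line from a human acute myeloid leukemia. Both of its FLT3 alleles carry an internal tandem duplication, and it also has the MLL-AF4 fusion. The members were taken by name. They are the hairpins hsa-mir-200b, hsa-mir-200a and hsa-mir-429, which lie together on chromosome 1, and hsa-mir-200c and hsa-mir-141, which lie together on chromosome 12. All 5 were listed among the 661 hairpins of the series, and 8 of their mature strands were listed among its 783 mature names. The strand without a row was miR-200c-5p. The data are from 3 replicate libraries in 1 group, of cells with the genotype WT that received an empty-vector (EV) lentiviral CRISPR-Cas9 construct and then grew for 2 weeks. Whether the libraries came from separate cultures is not stated. The study used such libraries to learn which miRNAs the line expresses. Every library carried this construct, so the series has no untreated cells and no second condition, and the comparisons are between members, between strands and between libraries. It is a single established line without an epithelial sample beside it. Totals of counts over mature strands were 12694823, 10991953 and 11682129 in replicates 1, 2 and 3.

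A miRNA is cut from a hairpin whose arms give a 5p and a 3p strand, and usually one of them is loaded into Argonaute in preference to the other. It finds messenger RNAs through its seed, bases 2 to 8. The miR-200 family is best known from epithelial tissues, where its 3p strands repress the transcription factors ZEB1 and ZEB2 and so keep E-cadherin on. ZEB1 and ZEB2 in turn repress both clusters. Messenger RNAs were not part of the files used here.

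The mature sequences are given because the seed divides the family in a way that its genome positions do not. RefSeq sequences were found by name for 7 of the 8 listed strands and for miR-200c-5p, and miR-141-5p had no entry. They are written 5′ to 3′ with the seed in capitals. The first seed group holds members of both clusters:

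miR-200b-3p: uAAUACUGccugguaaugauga

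miR-429: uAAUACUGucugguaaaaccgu

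miR-200c-3p: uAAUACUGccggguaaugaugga

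The second seed group differs from the first by U4C, counted from 1 at the 5′ end, and also holds a member of each cluster:

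miR-200a-3p: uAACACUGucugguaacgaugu

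miR-141-3p: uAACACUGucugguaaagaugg

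The reverse complements of these seeds are CAGUAUU and CAGUGUU, the letters that a fully paired target carries. Among 2370 human mature names with a RefSeq sequence, the first seed was carried by 3 and the second by 2, all of them in this family. Each cluster thus holds both seeds. miR-200c-3p differs from miR-200b-3p by U11G and A22G over 22 bases and is 1 base longer. miR-141-3p differs from miR-200a-3p by C17A and U22G. How reads with mismatches were assigned between such close members is not given in the sources used here. The 5p strands, which are the minor strands here, are:

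miR-200b-5p: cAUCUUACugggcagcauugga

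miR-200a-5p: cAUCUUACcggacagugcugga

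miR-200c-5p: cGUCUUACccagcaguguuugg

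miR-200b-5p and miR-200a-5p share a seed, and miR-200c-5p has another.

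The hairpins of the leading member of each cluster show where these strands lie, with both strands in capitals:

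hsa-mir-200b: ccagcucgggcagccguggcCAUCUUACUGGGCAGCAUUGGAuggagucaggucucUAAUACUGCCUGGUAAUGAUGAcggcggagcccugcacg

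hsa-mir-200c: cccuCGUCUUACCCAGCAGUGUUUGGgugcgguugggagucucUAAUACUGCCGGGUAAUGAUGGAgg

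RefSeq places hsa-mir-200b at chr1:1167104-1167198 and hsa-mir-200c at chr12:6963699-6963766, both on the plus strand of GRCh38.p14. The count tables carry no coordinates, and the submitters' processing notes name hg19. In GENCODE release 29, 664 bases separate MIR200B from MIR200A and 1052 bases separate MIR200A from MIR429, with no gene overlapping any of these hairpins. MIR200C and MIR141 are 330 bases apart, and both lie in an intron of the long non-coding RNA MIR200CHG on its own strand.

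The 3p strands of the family were at middle levels among the listed names, and their order was the same in all 3 libraries. All 8 listed strands together made up a mean of 0.0273% of the mature counts. Levels are compared as FPKM (counts per kilobase of the feature and per 1000000 counts), as deposited. miR-200c-3p had 4167, 7314 and 7656 FPKM in replicates 1, 2 and 3, a mean of 6379 ± 1923 (SD, n = 3), and ranked 157 of 783. Its level in replicate 1 stood apart from the other two. miR-200b-3p had 3544, 3266 and 3272 FPKM, a mean of 3361 ± 159 (SD, n = 3), and ranked 201. miR-200a-3p had 1744, 2062 and 1728 FPKM, a mean of 1844 ± 188 (SD, n = 3), and ranked 234. On this scale, which divides by library totals, the 3 libraries of each of these chromosome 1 strands lay close together. Other scalings of the hairpins, given below, widened that spread. miR-429, which also carries the first seed, had 563, 606 and 575 FPKM, a mean of 581 ± 22.6 (SD, n = 3), and ranked 330. miR-141-3p, the other product of chromosome 12, had only 105, 282 and 200 FPKM, a mean of 195 ± 88.3 (SD, n = 3), and ranked 437. It rested on 28, 65 and 49 counts. Of all mature names, 79.9% were below miR-200c-3p and 44.2% were below miR-141-3p in mean FPKM, so the 3p strands spanned a wide middle range of what was listed.

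**Figure D1:**
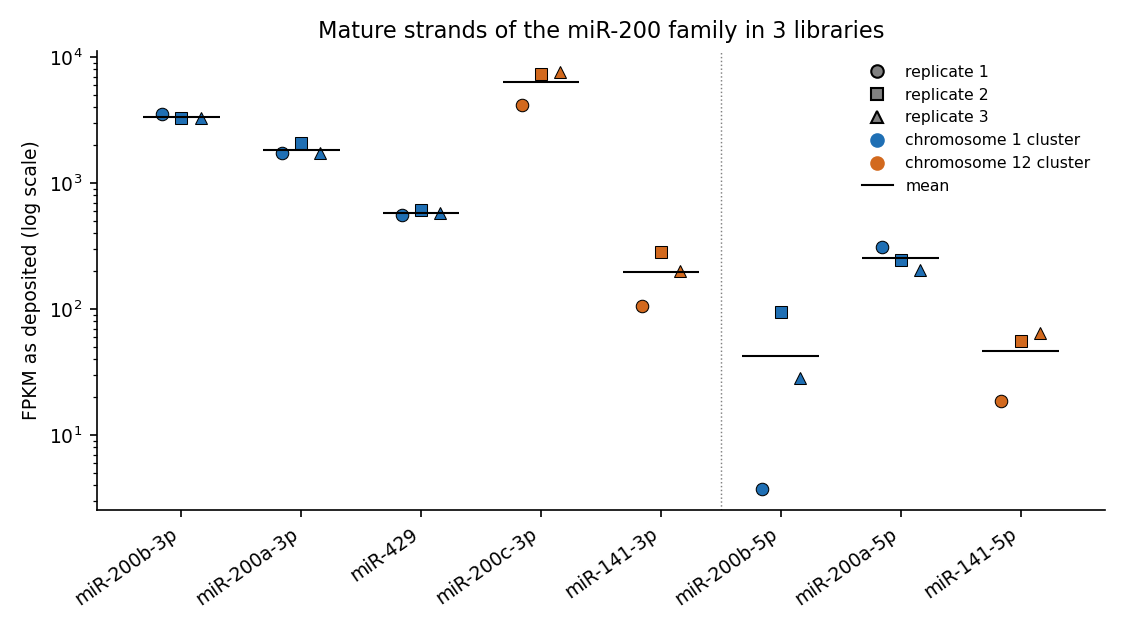
FPKM of each listed mature strand (log scale) in replicate 1 (circle), 2 (square) and 3 (triangle), with the mean as a line, 3p strands and miR-429 left of the dotted line and 5p strands right of it. The 3 points of miR-200b-3p, miR-200a-3p and miR-429 nearly coincide, while miR-200c-3p and miR-141-3p are lowest in replicate 1.

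The 5p strands were lower than the 3p strand of the same hairpin in every library. miR-200a-5p had 311, 247 and 204 FPKM, a mean of 254 ± 54.1 (SD, n = 3). miR-141-5p had 18.8, 56.3 and 65.2 FPKM from 5, 13 and 16 counts. miR-200b-5p had 3.75, 95.3 and 28.5 FPKM from 1, 22 and 7 counts. In the order of mean FPKM, neighbours were separated by more than the larger of their SDs except in the case of miR-200a-5p with miR-141-3p and of miR-141-5p with miR-200b-5p, whose order is not resolved.

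The leading members of both clusters were compared within libraries, where the scaling of a library cancels. miR-200c-3p exceeded miR-200b-3p by 1.18-fold, 2.24-fold and 2.34-fold in FPKM in replicates 1, 2 and 3, a mean log2 ratio of 0.87 ± 0.56 (SD, n = 3). The direction was the same in 3 of 3 libraries. In counts of the hairpins, 1168, 1778 and 1971 for hsa-mir-200c and 946, 775 and 810 for hsa-mir-200b, the mean log2 ratio was 0.93 ± 0.54 (SD, n = 3; exact two-sided sign-flip permutation p = 0.25, Benjamini-Hochberg adjusted 0.312 over 5 such tests). With 3 libraries 0.25 is the smallest p that this test allows, so it could not pass a threshold of 0.05 in any of the comparisons that follow. FPKM of the hairpins gave 1.42 because the authors divided hsa-mir-200c by a length of 67 bases and hsa-mir-200b by 94.

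Whether one cluster as a whole was the higher depended on the library. Summed over mature strands, the chromosome 1 cluster had 6165, 6276 and 5807 FPKM in replicates 1, 2 and 3. The chromosome 12 cluster had 4291, 7652 and 7921 FPKM. The chromosome 12 sum was 0.696 of the chromosome 1 sum in replicate 1 and 1.22 and 1.36 times it in replicates 2 and 3, so the order turned over between libraries. The mean log2 ratio was 0.07 ± 0.52 (SD, n = 3; exact sign-flip permutation p = 1). Hairpin counts come from largely the same reads, so they are no independent measure of this turn. They were 1646, 1451 and 1431 for chromosome 1 and 1220, 1861 and 2047 for chromosome 12. Their mean log2 ratio was 0.15 ± 0.51 (SD, n = 3, exact sign-flip permutation p = 0.75, adjusted 0.75). This value was 0.44 without replicate 1, 0.04 without replicate 2 and -0.04 without replicate 3, so no order of the cluster sums is shown by these libraries. On FPKM of the hairpins the ratios were 0.995, 1.72 and 1.92, and the sums of replicate 1 were then nearly equal.

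Within each cluster the proportions were steadier than between clusters. In FPKM of mature strands, miR-200b-3p exceeded miR-200a-3p by 2.03-fold, 1.58-fold and 1.89-fold in replicates 1, 2 and 3, and the SD of this log2 ratio was 0.19. miR-200b-3p exceeded miR-429 by 6.30-fold, 5.39-fold and 5.70-fold, with an SD of 0.11. On chromosome 12, miR-200c-3p exceeded miR-141-3p by 39.7-fold, 26.0-fold and 38.3-fold, with an SD of 0.34. On hairpin counts hsa-mir-200c exceeded hsa-mir-141 by 22.5-fold, 21.4-fold and 25.9-fold, with an SD of 0.14 on the log2 scale. The SD of the log2 ratio of hsa-mir-200c to hsa-mir-200b, across the clusters, was 0.54. The difference between these SDs was not tested. Within chromosome 1 the members thus differed by several fold, and within chromosome 12 by more than 20-fold, although neighbouring hairpins can come from a shared transcript.

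Scaling decides which cluster appears to vary. In CPM, counts per 1000000 of the hairpin total, the chromosome 1 cluster had 129, 132 and 122 in replicates 1, 2 and 3, and the chromosome 12 cluster had 95.9, 169 and 175. The Wilson 95% intervals of the chromosome 1 cluster, 123 to 136, 125 to 139 and 116 to 129 in replicates 1, 2 and 3, overlapped. Those of the chromosome 12 cluster in replicates 1 and 2, 90.7 to 101 and 161 to 177, did not. Within chromosome 1, those of hsa-mir-200a in replicate 2 (44.5 to 52.7) and replicate 3 (37.0 to 44.3) did not overlap either. These intervals cover counting error only. Replicate 1 also stood apart over the whole series, since the median hairpin with at least 50 counts in every library was higher than in replicate 1 by 0.34 in replicate 2 and by 0.47 in replicate 3 on the log2 scale (330 hairpins). On the same scale the chromosome 1 sum differed from replicate 1 by 0.03 and -0.08, and the chromosome 12 sum by 0.82 and 0.87, so one lay below this shift and the other above it. When the libraries were scaled by the median of ratios, which removes the shift, the chromosome 1 cluster had 158, 124 and 106 and the chromosome 12 cluster had 117, 159 and 152 CPM. With TMM, another scaling of this kind, the values were 155, 125 and 108 for chromosome 1 and 115, 160 and 154 for chromosome 12. On library totals the chromosome 12 cluster moved between libraries by more than counting error and by more than the chromosome 1 cluster. On both other scalings chromosome 1 was highest and chromosome 12 lowest in replicate 1.

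**Figure D2:**
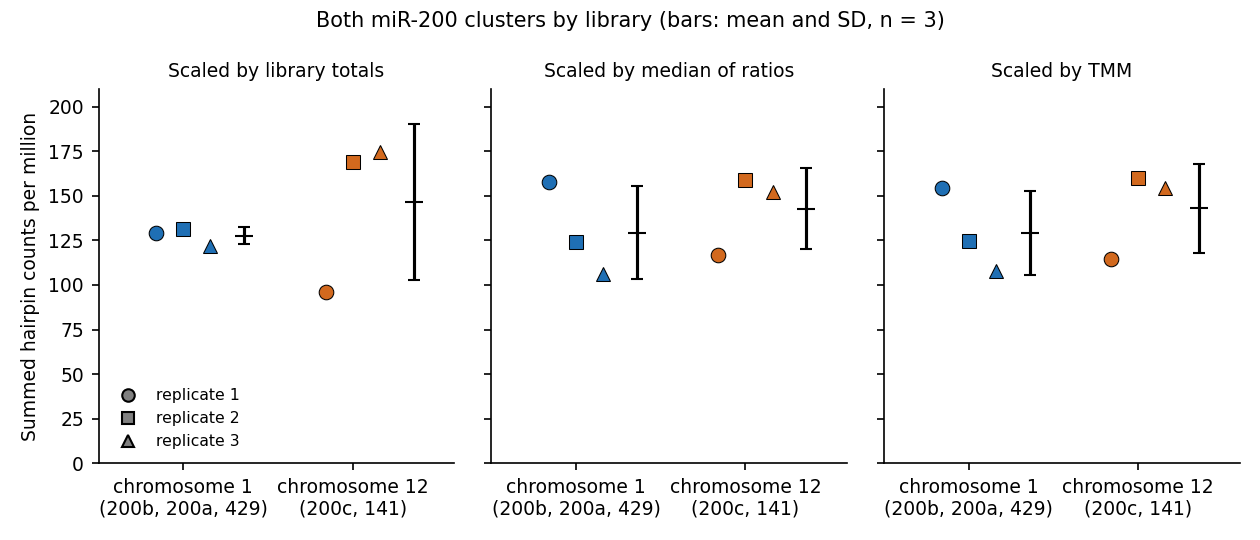
Summed hairpin CPM of the chromosome 1 cluster (blue) and the chromosome 12 cluster (orange) in replicate 1 (circle), 2 (square) and 3 (triangle), scaled by library totals, by the median of ratios and by TMM, with the mean and SD (n = 3) as bars. In all 3 panels chromosome 1 is the higher in replicate 1 and chromosome 12 in replicates 2 and 3. Each scaling multiplies both clusters of a library by the same factor, so this order cannot differ between panels.

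The seed groups were summed across the clusters, because members with a shared seed can bind the same sites. The group of miR-200b-3p, miR-200c-3p and miR-429 had 8273, 11186 and 11503 FPKM in replicates 1, 2 and 3. The group of miR-200a-3p and miR-141-3p had 1849, 2343 and 1928 FPKM. The first group was 4.47, 4.77 and 5.97 times the second, higher in 3 of 3 libraries. In counts the mean log2 ratio was 2.37 ± 0.22 (SD, n = 3; exact sign-flip permutation p = 0.25, adjusted 0.312). This ratio was far larger than its spread between libraries, unlike the ratio of the clusters.

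The strands of each hairpin were compared with the quasi-likelihood test of edgeR over all hairpins that had both strands above 0 counts in every library. Of 195 pairs, 160 were called, which is 82.1%, with a Benjamini-Hochberg adjusted p under 0.05 and a log2 ratio of at least 1 in size, and 41.5% of pairs were called toward 3p. All 3 family pairs were called toward 3p, which is the direction of about as many pairs as the opposite one in the series.

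For miR-200b the counts of the 5p strand were 1, 22 and 7 and those of the 3p strand 945, 754 and 803 in replicates 1, 2 and 3. The 5p share was 0.106%, 2.84% and 0.864%, and the Wilson 95% intervals of replicate 1 (0.0187% to 0.596%) and replicate 2 (1.88% to 4.26%) did not overlap. The fitted log2 ratio of 5p to 3p was -6.61 ± 0.83 (SE; edgeR adjusted p = 0.000613), lower in 3 of 3 libraries. It was -5.75 without replicate 1 and -7.84 without replicate 2. This pair ranked 16 of 195 toward 3p.

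miR-200a, from the same cluster, kept far more of its 5p strand. Its counts were 83, 57 and 50 for 5p and 465, 476 and 424 for 3p. The 5p share was 15.1%, 10.7% and 10.5%, a mean of 12.1% ± 2.61 (SD, n = 3). The log2 ratio was -2.87 ± 0.31 (SE; edgeR adjusted p = 0.000337), lower in 3 of 3 libraries, against a median size of 3.17 over all pairs.

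For miR-141 the counts were 5, 13 and 16 for 5p and 28, 65 and 49 for 3p. The 5p share was 15.2%, 16.7% and 24.6%, with a widest Wilson 95% interval of 6.65% to 30.9% in replicate 1. The log2 ratio was -2.08 ± 0.35 (SE; edgeR adjusted p = 0.00233), lower in 3 of 3 libraries.

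The 5p shares of miR-200a and miR-141 did not overlap with that of miR-200b in any library. The log2 ratio of 5p to 3p was higher for miR-200a than for miR-200b by 7.40, 2.04 and 3.76 in replicates 1, 2 and 3, a mean of 4.40 ± 2.74 (SD, n = 3; exact sign-flip permutation p = 0.25, adjusted 0.312). It was 2.90 without replicate 1, 5.58 without replicate 2 and 4.72 without replicate 3. miR-141, which shares the 3p seed of miR-200a but lies on the other chromosome, exceeded miR-200a by 0.00, 0.74 and 1.47, a mean of 0.74 ± 0.73 (SD, n = 3; exact permutation p = 0.25, adjusted 0.312). That difference was about the size of its spread, and was 1.10 without replicate 1 and 0.37 without replicate 3.

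**Figure D3:**
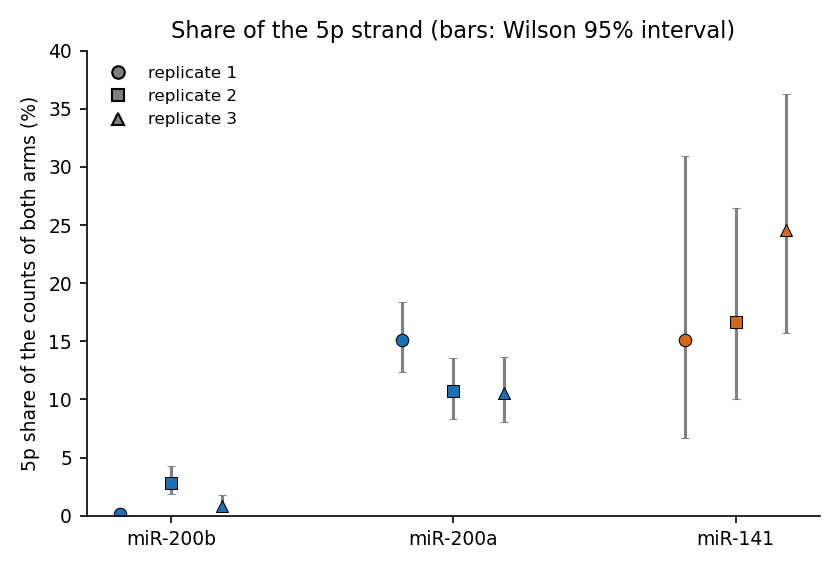
Share of the 5p strand among the counts of both strands (%) for miR-200b, miR-200a and miR-141 in replicate 1 (circle), 2 (square) and 3 (triangle), with Wilson 95% intervals as bars. All points of miR-200b are at or below 2.84%, and all points of miR-200a and miR-141 are at or above 10.5%.

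Reads of the hairpins outside the listed strands were few except for hsa-mir-141. For hsa-mir-200c, whose 5p strand had no row, 4, 9 and 3 counts of the hairpin were not in miR-200c-3p, so the 3p strand made up 99.7%, 99.5% and 99.8% of the hairpin in replicates 1, 2 and 3. For hsa-mir-429, which has 1 named strand, 98.7%, 98.6% and 95.9% of the hairpin counts were in it. For hsa-mir-200b and hsa-mir-200a the sums of the strands were within 1 count of the hairpin in every library. Of the 52, 83 and 76 counts of hsa-mir-141, 19, 5 and 11 were in neither strand, or 36.5%, 6.02% and 14.5%. In replicate 1, where this hairpin was lowest, the share outside was highest.

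The spread between libraries was set beside that of other hairpins. In CPM of the hairpin total, the coefficient of variation was 3.84% for hsa-mir-200b, where counting alone gives 3.44%, and 3.81% for hsa-mir-429, where counting alone gives 8.25%. It was 9.26% for hsa-mir-200a, where counting alone gives 4.39%. Of 65 hairpins within 2-fold of hsa-mir-200b in mean count, 1 had a smaller value, and their median was 19.8%. Each such set, here and below, includes the member itself. Of 86 near hsa-mir-429, 1 had a smaller value, and of 68 near hsa-mir-200a, 9 did. hsa-mir-200c had 30.1% and hsa-mir-141 had 29.3%, with 64.8% and 59.6% of the hairpins near them below, so the chromosome 12 members varied much as other hairpins did. With the median of ratios the values were 22.2%, 14.7% and 19.5% for hsa-mir-200b, hsa-mir-429 and hsa-mir-200a, and 15.9% and 18.3% for hsa-mir-200c and hsa-mir-141. The spread of the chromosome 1 members was thus small on library totals and larger with the median of ratios. The hairpins of like count were not rescaled, so no comparison with them was made on the latter scale.

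**Figure D4:**
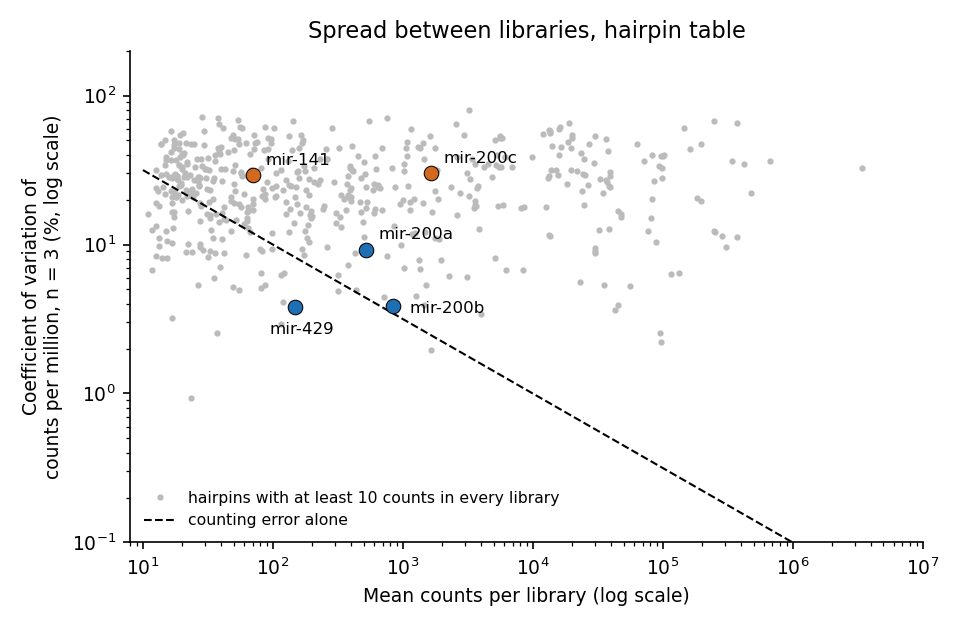
Coefficient of variation of hairpin CPM over 3 libraries (%, log scale) against the mean count (log scale), for all hairpins with at least 10 counts in every library (grey), the chromosome 1 members (blue) and the chromosome 12 members (orange), with the dashed line for counting error alone. hsa-mir-200b lies at 3.84%, just above the line, hsa-mir-429 lies at 3.81%, under it, and hsa-mir-200c and hsa-mir-141 lie near 30% among the other hairpins.

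The hairpins most like each member over the 3 libraries were found by the distance between centred log2 CPM among 526 hairpins with at least 10 counts in every library. For hsa-mir-200c they were hsa-mir-365a (distance 0.01), hsa-mir-345 (0.04) and hsa-mir-3940 (0.04). For hsa-mir-141 they were hsa-mir-342 (0.06), hsa-mir-144 (0.07) and hsa-mir-6877 (0.08). For hsa-mir-200b they were hsa-mir-378g (0.02), hsa-mir-6806 (0.03) and hsa-mir-4326 (0.04). For hsa-mir-200a they were hsa-mir-7641-2 (0.02), hsa-mir-663b (0.04) and hsa-mir-3916 (0.04), and for hsa-mir-429 hsa-mir-219a-1 (0.02), hsa-mir-101-1 (0.03) and hsa-mir-101-2 (0.04). Of the other hairpins, hsa-mir-141 came at place 64 from hsa-mir-200c with a distance of 0.20, while hsa-mir-200b came at place 359 with 0.77. From hsa-mir-200b, hsa-mir-429 came at place 41 and hsa-mir-200a at place 54. A pattern over 3 libraries is short, and many hairpins follow replicate 1 against the rest.

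The name of the family as epithelial was set beside other miRNAs of epithelia and of blood, from lists in which miR-429 was also counted. Of 10 epithelial miRNAs outside the family, 6 were listed. miR-203a-3p and miR-205-5p, which mark stratified epithelia, had no row, and neither did miR-375 and miR-31-5p. The 6 ranged from miR-215-5p, with 266 ± 36.8 FPKM (SD, n = 3), to miR-192-5p, with 13000 ± 3900 FPKM (SD, n = 3), and their median was 1355 FPKM. The median of all 783 mature names was 270 FPKM. Of the 6, 5 were below miR-200c-3p and 4 were below miR-200b-3p. Over all mature names, 79.9% and 74.3% were below these strands in turn, so the counts are near those of the whole series. All 8 blood cell miRNAs were listed, from miR-150-5p with 53.2 ± 30.0 FPKM to miR-155-5p with 1100895 ± 124530 FPKM (SD, n = 3). Their sum exceeded that of the family by 166-fold, 208-fold and 216-fold in replicates 1, 2 and 3. The 6 epithelial miRNAs also exceeded the family in sum, with 21608, 19128 and 18669 FPKM against 10456, 13928 and 13728. Most of that epithelial sum was miR-192-5p alone. The next highest of the 6, miR-194-5p, had 3424 ± 2249 FPKM (SD, n = 3). In contrast to the other blood miRNAs, miR-150-5p was below most of the family: miR-200c-3p, miR-200b-3p, miR-200a-3p, miR-429, miR-200a-5p and miR-141-3p were above it in mean FPKM. RNA was taken from whole cultures, so few cells with a high level and many cells with a low level cannot be told apart.

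**Figure D5:**
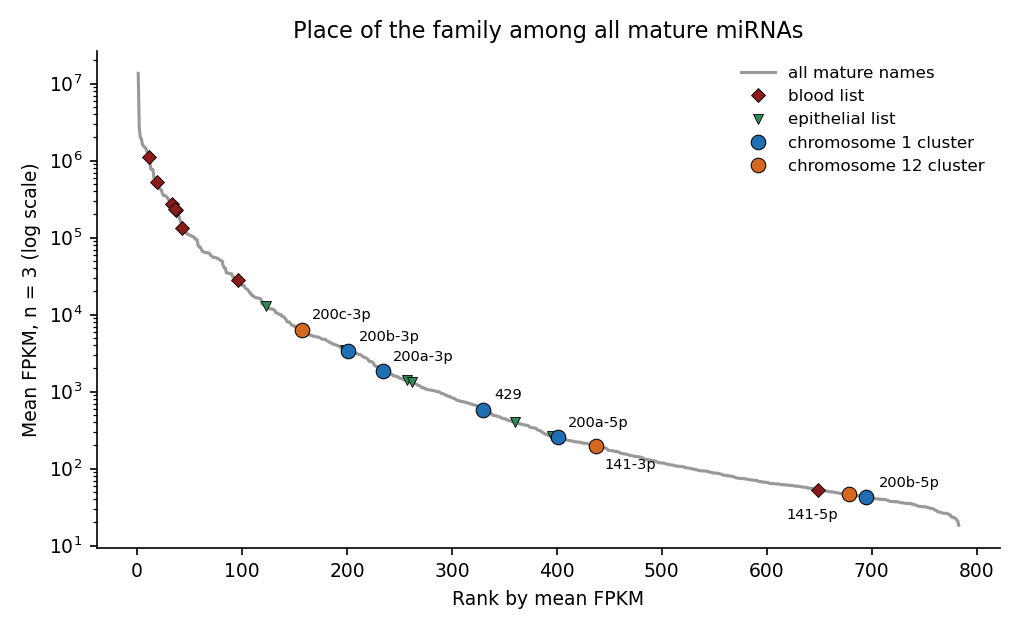
Mean FPKM (n = 3, log scale) of all 783 mature names by rank (grey line), with the family in blue (chromosome 1) and orange (chromosome 12), the listed epithelial miRNAs outside the family as green triangles and the blood list as red diamonds. miR-200c-3p lies at rank 157, below all blood miRNAs but miR-150-5p, and miR-194-5p is partly hidden by miR-200b-3p.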

How the data were processed

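Small RNA of 3 replicate libraries, numbered in the titles, was analysed as 1 group. Per the paper's methods the authors isolated RNA on miRNeasy columns, made NEB libraries, sequenced on an Illumina instrument and counted reads over miRBase 21 mature strands and primary transcripts (hairpins). The submitters' processing notes name Novoalign 2.08.03 and the builds hg19 and mm10, without their roles. Trimming is not given in the sources used here. The authors deposited whole counts, not normalized, and FPKM. Dividing counts by the deposited FPKM returned feature lengths 1 base under the sequence length (21 for a strand of 22), which raises FPKM slightly. Every listed row had at least 10 counts in 1 library or more, so no level was given to an unlisted strand. Ligation efficiency differs between sequences, and the reads carry no molecular identifiers. Nothing states that the libraries came from separate cultures, so p-values measure the spread between these libraries.

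Rows sharing a mature name were summed. Strands were tested with edgeR 4.0.16 (glmQLFit, glmQLFTest) in R 4.3.3, with library as a block and Benjamini-Hochberg adjustment over all 195 pairs. The script was tested on simulated data. SE is the log2 ratio divided by the square root of its F statistic. Other values came from pandas 2.3.3 in Python 3.11.15. Sign-flip permutation tests were exact and two-sided. The named hairpins were all family members and, for each, the 3 nearest patterns. The markers named were the ends of each list, the members without a row, and miR-194-5p, named after its value was seen. Members and lists were chosen with earlier results of these data known. Alternatives were limma 3.58.1, DESeq2 1.42.0, other scalings, filters and units, and leaving out each library.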

Additional observations from a re-analysis of the deposited data

How the results depend on the processing

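Many of the values recomputed under an alternative were bound to hold. Leaving out 1 of 3 libraries cannot move a mean level or share by as much as 1 SD. The sign-flip tests could not pass the threshold under any setting, so only their direction could change. The count of values that held is therefore a weak measure of stability. Of 172 recomputed values, 170 kept their direction and stayed on the same side of the threshold or within 1 SD. The exceptions were the log2 ratio of the chromosome 12 to the chromosome 1 cluster, which turned to -0.0365 without replicate 3 (range -0.0365 to 0.438 with 1 library left out), and the share of hsa-mir-141 in the family total, 1.78% in FPKM against 2.17% in counts. The first rests on replicate 1, where the log2 ratio was -0.43, against 0.36 and 0.52 in replicates 2 and 3. Why replicate 1 differed was not tested. The second follows from dividing by hairpin length. This division also moved the share of hsa-mir-200c from 50.4% to 57.8% and that of hsa-mir-200b from 26.6% to 21.9%. Both moves were within 1 SD. Called strand pairs ran from 124 with at least 10 counts in both strands, where 148 pairs were left, to 168 without replicate 1. Without the library as a replicate block, 162 pairs were called against 160. All 3 family pairs were called under each alternative that could test them, and miR-200b and miR-141 could not be tested with the minimum of 10 counts. Strand ratios were nearly free of scaling by construction. The planned comparison of the strand ratio of miR-200c with that of miR-200b was not run, because miR-200c-5p had no row. It was replaced by miR-200a against miR-200b and miR-141 against miR-200a, chosen after the data were seen, and the tests of the sums by cluster and by seed were also added then. With 1 to 28 counts in 1 library, miR-200b-5p, miR-141-5p and miR-141-3p are limited by depth.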
